A study of Arabidopsis thaliana with 2 samples.

Results

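Glycolysis splits sugar into pyruvate and supplies ATP, NADH and carbon skeletons. Plants run it in the cytosol and, with separate nuclear-encoded isoforms, in the plastid, and the cytosolic route draws on sucrose in cultured cells that live on sugar in the medium. How much of an mRNA sits on polysomes, several ribosomes on 1 transcript, is a common measure of how actively it is being translated.

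The genes described here encode 9 enzymes of the cytosolic route, chosen by locus among 25417 loci named on the array: hexokinase HXK1 (AT4G29130), the aldolases FBA6 (AT2G36460) and FBA8 (AT3G52930), the triose-phosphate isomerase TPI (AT3G55440), the glyceraldehyde-3-phosphate dehydrogenases (GAPDH) GAPC1 (AT3G04120) and GAPC2 (AT1G13440), the phosphoglycerate kinase PGK (AT1G79550), the phosphoglycerate mutase iPGAM1 (AT1G09780) and the enolase LOS2 (AT2G36530). Each was represented by 1 probe, and all 9 probes carried signal on both days. No measured value entered the choice, although results of these data were already known when the genes were listed.

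The study used suspension cells of Arabidopsis thaliana line T87, grown at 22 °C with 16 h of light and 8 h of dark, and compared cells harvested 1 day and 8 days after inoculation; the labels give no genotype change and no treatment for either group. Cells were passed weekly into fresh medium (4 ml of suspension into 95 ml). Each day is 1 array with 2 channels, comparing RNA of gradient fractions 1 to 3, the polysomal pool, with RNA of all 8 fractions, and the design text states 1 biological replicate. There is therefore no spread between cultures, no test and no p-value for any value below. In a bulk culture, a lower ratio in every cell and a much lower ratio in some cells cannot be told apart.

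Each value is a polysome ratio, read as the percent of a gene's mRNA found in the polysomal pool. Negative-control features, which carry no signal, also had values on this scale, with medians of 53.8% on day 1 and 25.1% on day 8. The day 8 value is close to the median of all genes (24.2%) and to TPI (23.1%) and FBA8 (27.4%). A percent by itself is therefore not proof of a measured share of mRNA, and features without signal were left out. The direction is the likely one rather than a stated one: the sample titles and the design text name the polysomal pool first, while the labels of the dyes conflict. Read this way, only 0.372% of genes lay above 100% on day 1, and the 13 small nucleolar and nuclear RNA genes had medians of 3.08% and 2.22%. Both pools were amplified with oligo(dT) primers, and what the probes of those 13 genes detect was not examined. Were the ratio the other way round, each value would be its reciprocal. Every order, sign and count of higher or lower genes below would then turn. One sentence of the labels calls the other pool nonpolysomal, and percents would then be relative to mRNA outside polysomes. Changes are day 8 less day 1 on the log2 scale. The 10 spike-in probes, RNAs added in known amounts, themselves had a median change of -0.29, with single probes from -0.55 to 0.61. The spike-in probe nearest 0 on day 1 changed by -0.01. The position of 0 is therefore uncertain. Changes are given mainly relative to the median of 19627 genes with signal on both days, which was -0.52.

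Error within these arrays was judged from 559 genes with more than 1 probe. On the log2 scale, probes of one gene scattered with a median SD of 0.14 in the day 1 ratio, 0.33 in the day 8 ratio and 0.31 in the change. For 2 probes of a gene, the median absolute difference in change was 0.43 and the 90th percentile was 1.45. Of 10 markers of plant cell types, 6 gave signal on both days. These included all 3 of photosynthetic cells (RBCS1A, LHCB1.1 and PSAD1), as a green culture would have. They also included OLEO1 of seeds, IRX3 of xylem and GL2 of epidermal patterning. CRA1, FAMA, SUC2 and AG gave no signal on day 8, although CRA1 and 1 probe of SUC2 gave signal on day 1. Signal shows hybridisation and not a level, and the part of other cell types in the results was not tested.

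On day 1 the 9 genes had nearly one value. Their median ratio was 38.7%, against 36.0% for all genes, and they ran from 35.7% (FBA8) to 42.0% (iPGAM1). This span of 0.23 on the log2 scale was below the 90th percentile for 2 probes of a gene on day 1 (0.81), so the order on day 1 cannot be told from the error between probes. On day 8 their median was 34.9%, against 24.2% for all genes, and the span had widened to 1.24, from 19.1% (GAPC2) to 45.1% (PGK). This wider span was still below the 90th percentile for 2 probes of a gene on day 8 (1.43). All genes also spread more on day 8, with an interquartile range of 1.00 against 0.32 on day 1.

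Compared with day 1, the ratio was lower on day 8 for 7 of the 9 genes and higher for 2, as deposited; of all genes 81.3% were lower and 18.5% higher. That count is close to the background. The median change of the 9 genes was -0.23, against -0.52 for all genes. Of the 9, 1 (GAPC2) was lower by at least 2-fold, against 25.7% of all genes. None (0) was at least 2-fold higher, against 1.21% of all genes. With only 9 genes, neither of these 2-fold counts stands out from the background. Relative to the median gene the 9 genes had a median of 0.29, with 7 above it and 2 below, where 49.9% of genes lie above by construction.

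**Figure D1:**
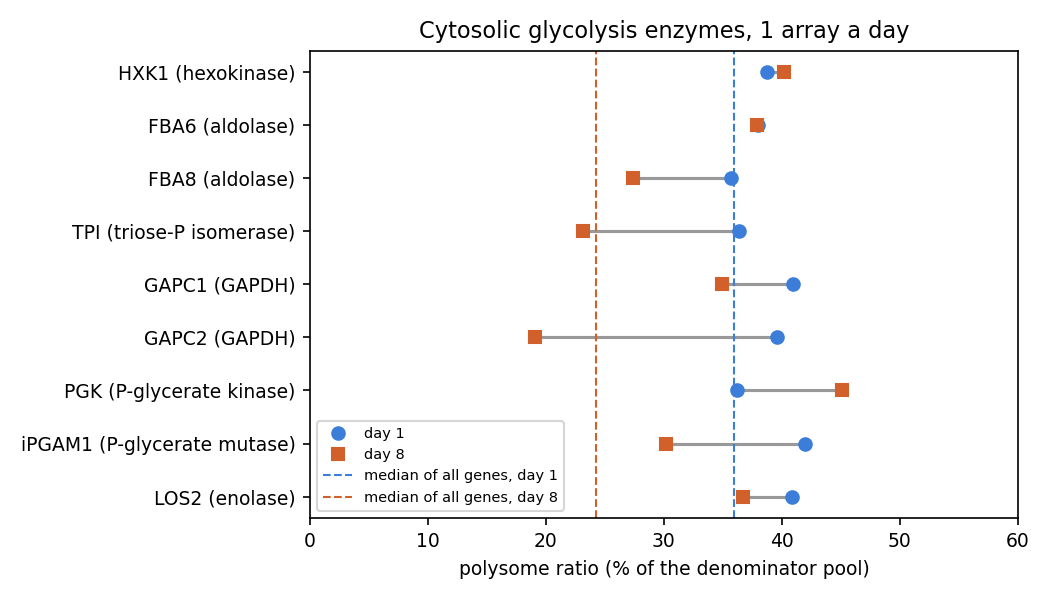
Polysome ratio (percent of the denominator pool) of each of the 9 genes on day 1 (circles) and day 8 (squares), 1 array a day and so no error bars, in pathway order from top to bottom. Dashed lines mark the median of all genes, 36.0% on day 1 and 24.2% on day 8; on day 8 only TPI and GAPC2 lie left of the day 8 line.

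HXK1 makes glucose 6-phosphate, the entry to the pathway, and is also known as a glucose sensor in Arabidopsis. Its ratio was 38.7% on day 1, then 40.2% on day 8, a change of 0.05. Its ratio stood above 69.2% of genes on day 1 and above 87.5% on day 8. HXK1 was thus 1 of 2 members with a higher ratio on day 8, by less than the SD between probes.

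The aldolases FBA6 and FBA8 cleave fructose 1,6-bisphosphate into both triose phosphates. FBA6 had 38.0% on day 1 against 37.9% on day 8, a change of 0.00. FBA8 had 35.7% and 27.4%, a change of -0.38. The pair differed by 0.09 on day 1 and by 0.47 on day 8, and both differences lie within the 90th percentile for 2 probes of a single gene.

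TPI interconverts the triose phosphates made by aldolase. It had 36.4% on day 1 against 23.1% on day 8, a change of -0.65, or -0.13 relative to the median gene. TPI was therefore 1 of the 2 members below the median gene. With features without signal included, the median gene itself moved to -0.67 and TPI lay at 0.02 above it, so its side of that line depends on the filter.

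GAPC1 and GAPC2 encode cytosolic GAPDH, which oxidises glyceraldehyde 3-phosphate and yields NADH. GAPC1 had 40.9% on day 1 against 34.9% on day 8, a change of -0.23. GAPC2 had 39.6% and 19.1%, a change of -1.05, the lowest of the 9 and -0.53 relative to the median gene. The 2 isoforms were 0.05 apart on day 1 and 0.87 apart on day 8. That gap exceeded the median difference between 2 probes of a gene on day 8 (0.47) but not the 90th percentile (1.43). The 2 genes are close paralogs, and whether their probes bind only their own transcript was not examined.

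PGK, also a step of ATP formation, had the highest ratio of the 9 on day 8. It had 36.2% on day 1 against 45.1% on day 8, a change of 0.32, or 0.84 relative to the median gene. On day 1 it stood above 51.6% of all genes, and on day 8 above 92.7%. Its probe and that of GAPC2, which acts just before it in the pathway, were 1.37 apart in change, the widest gap among the 9 and slightly under the 90th percentile of 1.45.

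iPGAM1 and LOS2 carry 3-phosphoglycerate on to phosphoenolpyruvate. iPGAM1, a cofactor-independent mutase, had 42.0% on day 1 against 30.2% on day 8, a change of -0.48 and 0.05 relative to the median gene. The enolase LOS2, whose locus is also known for a role in cold-responsive transcription, had 40.8% and 36.7%, a change of -0.15. FBA6 and LOS2 are near each other on the chromosome, with 7 annotated loci between them. Their day 8 ratios were 0.05 apart. On day 1 all 9 genes spanned only 0.23, so closeness then does not set the pair apart. A link to position was not tested.

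In order of their day 8 ratio the genes ran PGK, HXK1, FBA6, LOS2, GAPC1, iPGAM1, FBA8, TPI and GAPC2. Every neighbouring pair in this order was closer than the median difference between 2 probes of a gene on day 8 (0.47), the largest gap being 0.28 between TPI and GAPC2. Both ends of the order hold genes of the lower, energy-yielding steps. With 0 at the median spike-in, 5 of 9 genes had a change above it, where 36.0% of all genes did, and FBA8 (-0.09) and iPGAM1 (-0.19) then lay below 0. With 0 at the median spike-in, or at the median gene, 0 of 9 genes were at least 2-fold lower (16.2% and 10.8% of all genes were) and 0 of 9 at least 2-fold higher (2.47% and 4.45%).

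**Figure D2:**
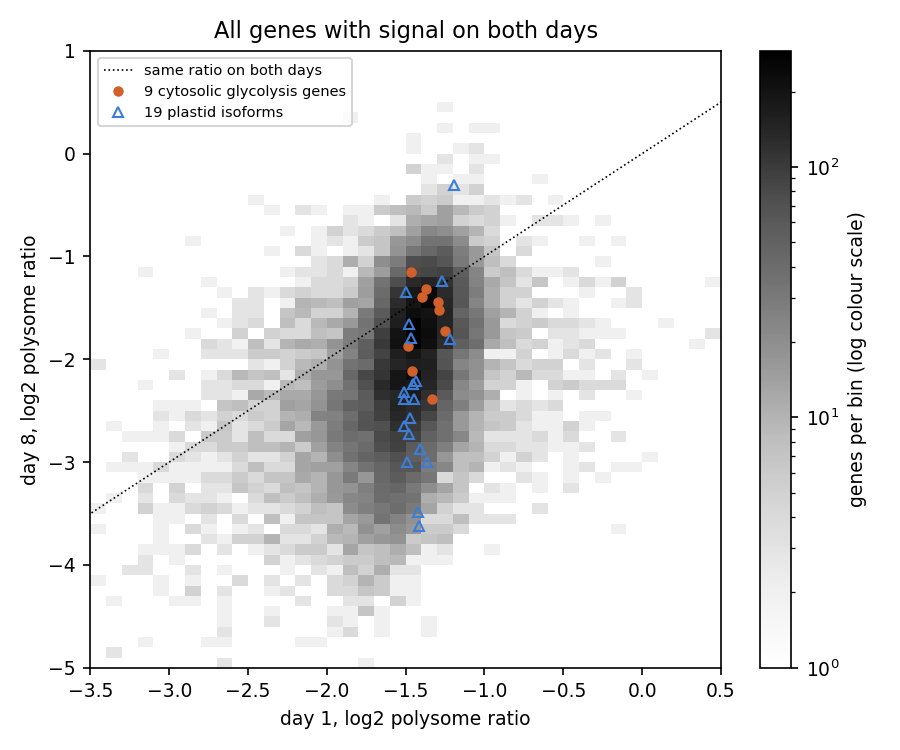
Log2 polysome ratio on day 1 (x axis) and day 8 (y axis) for genes with signal on both days, as a shaded count per bin, with the 9 cytosolic glycolysis genes (filled circles) and 19 plastid isoforms (triangles); the axes cover 19490 of the 19627 genes. On day 1 both sets fall in one narrow band, and on day 8 the cytosolic genes lie from -2.39 to -1.15 while the plastid ones reach down to -3.62.

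Plastid genes for the same reactions mostly lay on the other side of the median gene. Of 13 plastid genes for reactions that the 9 genes catalyse, 10 lay below the median gene in change and 3 above, and 6 of 13 were at least 2-fold lower as deposited, against the 25.7% of all genes given above. Their median ratio was 37.3% on day 1, close to that of the cytosolic genes, and 19.1% on day 8. The 6 were FBA1, FBA2, FBA3, the isomerase AT2G21170, GAPA1 and GAPB. The glycolytic GAPDH genes GAPCP1 and GAPCP2 changed by -0.87 and -0.94. Several of the 13 serve photosynthetic carbon fixation, and GAPA1, GAPA2 and GAPB encode the photosynthetic GAPDH rather than a glycolytic one. The 3 photosynthetic markers had day 8 ratios of 12.0% (RBCS1A), 11.1% (LHCB1.1) and 36.2% (PSAD1), with changes of -1.82, -1.60 and -0.06. The part of that cell function in the difference was not tested, and with 1 array a day the difference between compartments has no test.

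Triose-phosphate isomerase was the reaction with 1 cytosolic and 1 plastid gene. The plastid gene, AT2G21170, had 37.5% on day 1 against 8.13% on day 8, a change of -2.21, and stood 1.55 below cytosolic TPI in change. This gap exceeded the 90th percentile for 2 probes of a gene. On day 1 both isomerases were 0.04 apart.

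Plastid aldolases had 13.6% (FBA1), 16.8% (FBA2) and 12.5% (FBA3) on day 8, after 37.6%, 36.1% and 38.9% on day 1. All 3 changes, -1.46, -1.10 and -1.64, lay below those of FBA6 and FBA8. The other cytosolic aldolase genes differed among themselves. FBA4 had 32.5% and 34.8%, FBA5 had 17.7% and 10.7%, and FBA7 had 30.1% and 14.6%.

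Plastid GAPDH genes lay below the median gene in 5 of 5 cases. The glycolytic isoforms GAPCP1 and GAPCP2 had 35.2% and 36.7% on day 1 and 19.2% and 19.1% on day 8, values on day 8 close to that of cytosolic GAPC2. Of the subunits of the photosynthetic enzyme, GAPA1 had 37.3% and 8.93%, GAPA2 had 36.5% and 21.2%, and GAPB had 35.6% and 12.5%. GAPC1, at 34.9% on day 8, was above all 5.

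The later reactions did not follow this pattern. The plastid phosphoglycerate kinases PGK1, with 41.4% and 42.5%, and PGK2, with 43.8% and 80.9%, and the plastid enolase ENO1, with 35.5% and 39.4%, were all higher on day 8. PGK2 changed by 0.89, more than cytosolic PGK. The kinases were the only one of the 7 reactions in which every gene measured, 3 of 3, was higher on day 8, as were 18.5% of all genes. The change of PGK1 was only 0.04, below the median SD between probes of a gene (0.31). Whether the kinase probes bind only their own transcript was not examined. The other cytosolic enolase, ENO3, had 39.0% and 39.5%. The second mutase, iPGAM2, had 43.1% and 35.8%, close to iPGAM1 on day 1 and 0.25 above it on day 8. HXK2, the hexokinase most like HXK1, had 41.1% and 32.8%, and the plastid HXK3 had 43.0% and 28.7%.

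**Figure D3:**
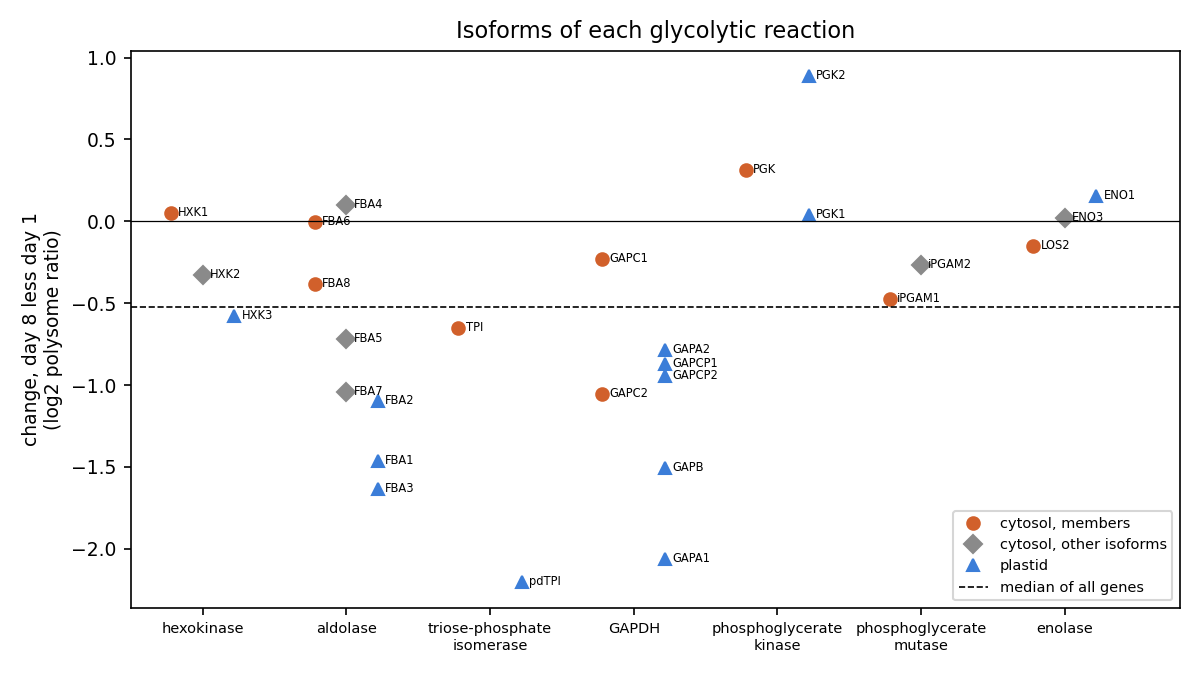
Change in polysome ratio from day 1 to day 8 (log2, y axis) of the genes for each of the 7 reactions (x axis), 1 array a day, with the 9 cytosolic genes as circles, other cytosolic isoforms as diamonds and plastid isoforms as triangles. The dashed line is the median of all genes (-0.52); plastid aldolases, isomerase and GAPDH genes lie below it, and plastid phosphoglycerate kinases and enolase above it.

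Most of the rest of the cytosolic pathway also lay above the median gene. Of 34 further genes, 30 had signal on both days, and 22 of these lay above it and 8 below, with a median of 0.45 relative to it and of 36.2% on day 8. As deposited, 5 of 30 were at least 2-fold lower, against 25.7% of all genes. None (0) was at least 2-fold higher, against 1.21% of all genes, so neither count stands out from the background. The remaining 4, among them hexokinase-like HKL1 and phosphofructokinase PFK7, could not be told from features without signal on at least 1 day.

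Upper and committing steps mostly lay above the median gene. Cytosolic phosphoglucose isomerase (AT5G42740) had 45.5% and 46.6%. Of 8 measured genes of ATP- and pyrophosphate-dependent phosphofructokinase, 7 lay above it. As deposited 3 were higher on day 8 and 5 lower, against 18.5% and 81.3% of all genes. The higher ones were PFK1, with 35.9% and 36.8%, PFK3, with 41.5% and 42.1%, and AT1G12000, a beta subunit of the pyrophosphate enzyme, with 40.8% and 42.0%. Of the lower ones, the other beta subunit AT4G04040 had 43.1% and 42.8%, PFK6 had 40.7% and 38.0%, and the alpha subunits had 34.4% and 29.8% (AT1G20950) and 35.9% and 29.0% (AT1G76550). PFK2, below the median gene, had 35.6% and 8.99%, the lowest change of the list (-1.99). F2KP, the bifunctional enzyme that makes and breaks the regulator fructose 2,6-bisphosphate, was nearest the list's median with 37.6% and 36.6%. The nonphosphorylating GAPDH (AT2G24270), which bypasses GAPC and PGK, had 43.7% and 15.5%.

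At the end of the pathway the genes diverged. Of 8 measured cytosolic pyruvate kinases, 4 lay above the median gene and 4 below. AT5G56350 had 40.0% and 59.8%, the highest change of the list (0.58), and AT3G55650 had 45.7% and 16.7%. The 2 probes of AT2G36580 disagreed, with changes of 0.11 and -0.96. All 3 phosphoenolpyruvate carboxylases, which turn phosphoenolpyruvate to oxaloacetate, were slightly higher on day 8, where 18.5% of all genes were higher. They went from 36.6% to 42.6% for PPC1, 38.4% to 42.2% for PPC2 and 38.8% to 39.7% for PPC3. The largest of these changes, 0.22 for PPC1, was below the median SD between probes of a gene (0.31).

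Pathways that take up pyruvate are given for comparison, with no test of a difference. Of 9 fermentation genes, 8 lay above the median gene, with a median of 0.70 relative to it. Alcohol dehydrogenase ADH1, nearest that median, had 42.7% and 48.4%, pyruvate decarboxylase PDC3 had 18.4% and 75.2%, and the hemoglobin HB1 had 36.8% and 17.3%. Of 22 measured genes of pyruvate oxidation and the tricarboxylic acid cycle, 13 lay above the median gene and 9 below, with a median of 0.27. The malate dehydrogenase mMDH1 was highest with 33.3% and 55.8%, aconitase ACO1 was nearest the median of the list with 38.5% and 35.3%, and IDH5, a catalytic isocitrate dehydrogenase subunit, was lowest with 34.7% and 13.2%.

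**Figure D4:**
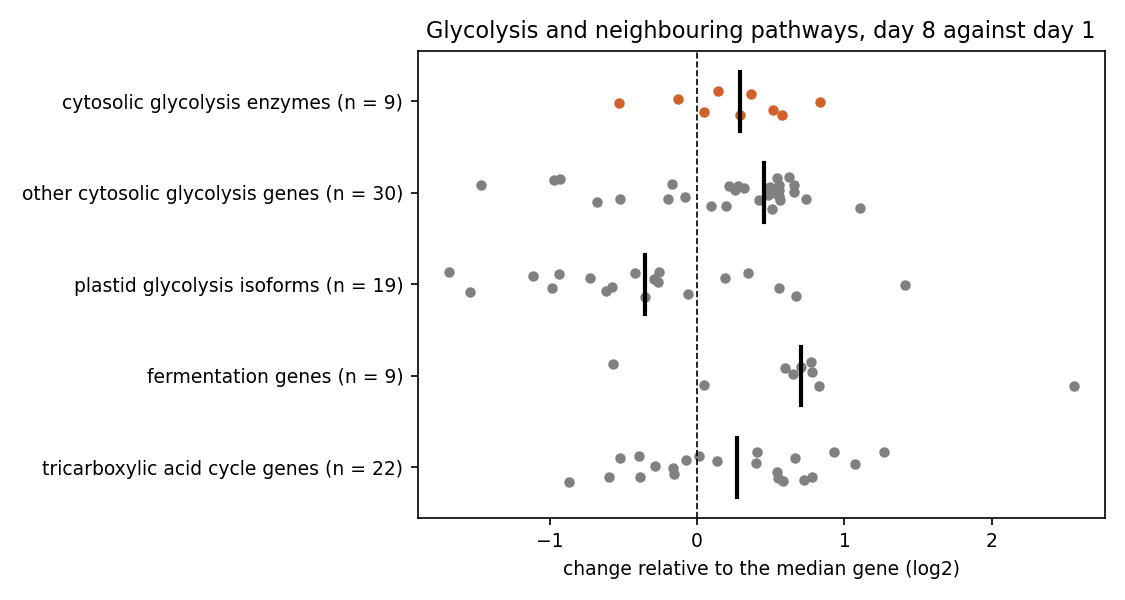
Change relative to the median gene (log2, x axis) of every gene with signal in the 9 cytosolic glycolysis enzymes and 4 related lists, 1 point a gene with vertical scatter for legibility only, and a bar at each list's median. Medians are 0.29, 0.45, -0.35, 0.70 and 0.27 from top to bottom; the lists overlap.

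By likeness on the 2 arrays, the genes nearest to the medians of the 9 (Euclidean distance on the log2 scale) were HIR2, with 38.8% and 34.9%, AT5G10540, with 38.8% and 35.0%, and AT1G67650, with 38.5% and 34.9%. In all, 722 loci outside the lists, these 3 included, lay within 0.1 of that point, among 19627 genes with signal on both days. The combination of ratios was thus not particular to the 9 genes.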

How the data were processed

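The authors deposited log10 polysome ratios for 39102 features on each of 2 two-colour Agilent arrays, with their difference between days. The steps from scanner signals to ratios are not stated in the labels or files. Per the labels' protocols, both pools were amplified by oligo(dT)-primed in vitro transcription. The log base was read from the spike-in probes, which spanned -0.838 to 0.925 on day 1. The series value table held the same values (largest difference 0), and 0 columns of per-sample values were left unused.

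Values were converted to log2 with Python 3.11.15. Features without signal shared a value that varied smoothly over the array. The medians of the negative controls were -0.89 on day 1 and -2.00 on day 8 (log2), or 53.8% and 25.1% as percents. This surface was taken as the median of the 30 nearest features within 0.04 (log10) of the negative-control median, and features within 0.006 of it were left out: on day 1 this took 25.5% of the gene probes' features, and 26.8% on day 8. The closest of the 9 genes was FBA8 on day 8, 0.038 away. Probes of a gene were averaged. Loci came from the file's gene names (25920 probes), RefSeq accessions (253) and symbols (42); 25343 of 25417 loci were in the RefSeq table of assembly TAIR10.1. Code was checked on simulated arrays.

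The 9 genes and the other lists were chosen with earlier results of these data known. Named are the 9 genes, other isoforms of their reactions, and of each list the highest, lowest and most central gene; the phosphofructokinases, pyruvate kinases and carboxylases named beyond that were chosen after their values were seen. Channel signals and probe sequences were not analysed here. The number of arrays limits the precision.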

Additional observations from a re-analysis of the deposited data

How the results depend on the processing

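Across the alternatives tried for each result (features without signal included, a tolerance of 0.012, 0 at the median spike-in, the lowest or the highest probe of each gene, genes above 100% left out, and the series value table), the median change of the 9 genes relative to the reference ranged from 0.06 with 0 at the spike-ins to 0.44 with features without signal included, and from 5 to 8 of 9 genes lay above the reference. The median ratios of the 9 genes were 38.7% and 34.9% under each of them, since each gene has 1 probe. The count of genes at least 2-fold lower, 1 as deposited, was 0 with 0 at the median spike-in and 0 with 0 at the median gene, the last an alternative chosen after seeing the data; both move the zero and no gene's own values. The list medians for the plastid isoforms ranged from -0.58 to -0.20, and those of the other 3 lists stayed above 0, down to 0.04 for the tricarboxylic acid cycle with 0 at the spike-ins. No paired analysis was possible because each day is 1 array.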

Other observations

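Enzymes named phosphoglycerate mutase in the file include a wider family besides the cofactor-independent iPGAM1 and iPGAM2, most of whose members have other or unknown substrates. These were chosen by their description after values had been seen, so they are given as values only. Of 19 such genes, 16 had signal on both days. All 16 had a lower ratio on day 8 as deposited, as did 81.3% of all genes, and 13 lay below the median gene in change. At the median they had 35.6% on day 1, against 18.7% on day 8. AT5G64460 was lowest with 35.7% and 12.7%, AT1G22170 was nearest the median with 39.1% and 21.0%, and AT3G52155 was highest with 36.7% and 29.7%. On day 8 iPGAM1, at 30.2%, and iPGAM2, at 35.8%, were above all 16. Both leads over AT3G52155 were smaller than the median difference between 2 probes of a gene on day 8 (0.47 on the log2 scale).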
